A study of Mus musculus with 8 samples.

Results

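The genes of the Notch pathway described here were 4 receptors (Notch1, Notch2, Notch3 and Notch4), 3 ligands (Dll1, Jag1 and Jag2) and 3 target genes (Hes1, Hes5 and Hey1), 10 of the 18193 genes named on the arrays. They were found as all probe sets annotated to one of these symbols alone, which gave 19 of the 45037 probe sets tested. Each gene is represented by its probe set of highest mean, with its other probe sets given beside it. Hippocampal RNA of female mice was hybridised to 8 one-colour Affymetrix mouse genome arrays to ask how expression differs between an Alzheimer's disease model and its controls at 4 months, when symptoms are early, and at 8 months, when they are late. The model is Tg6799, called MT, a line that carries mutant human transgenes of familial Alzheimer's disease under the Thy1 promoter, which is active in neurons, and the controls are littermates without the transgenes, called LM. The groups LM4m, MT4m, LM8m and MT8m give genotype and age in months and hold 2 arrays each. No source states if each array holds RNA of 1 animal or of several, and the p-values therefore measure the spread between these samples, some of which may be technical.

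Notch receptors are membrane proteins that bind Delta-like or Jagged ligands on a neighbouring cell. A sheddase and then gamma-secretase, the protease that also releases amyloid beta, cut the bound receptor, and its intracellular domain goes to the nucleus, where it joins the DNA-binding protein Rbpj and Mastermind-like coactivators and turns on Hes and Hey repressors. In the adult hippocampus the pathway is known for keeping neural stem cells of the dentate gyrus undivided, for its part in astrocytes and synapses, and in blood vessels for the state of endothelial and mural cells. The arrays measured RNA only, so cleavage of the receptors was not measured.

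The upstream promoter sequences of Hes5, a direct target gene, and of Notch2, the receptor with the widest spread between arrays, are shown to place the measured genes beside the letters that Rbpj binds. They are the 250 bases before the start given by RefSeq (GRCm38.p6), and capitals mark the motif searched, GTGGGAA or its reverse complement TTCCCAC. The Hes5 window is chr4:154960673-154960922 and the Notch2 window chr3:98013288-98013537, both on the plus strand.
Hes5: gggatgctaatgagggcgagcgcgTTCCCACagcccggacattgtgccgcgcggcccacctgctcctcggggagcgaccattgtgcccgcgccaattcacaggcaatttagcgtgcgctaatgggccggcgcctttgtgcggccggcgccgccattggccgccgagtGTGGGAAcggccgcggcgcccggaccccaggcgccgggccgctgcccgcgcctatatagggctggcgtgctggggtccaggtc
Notch2: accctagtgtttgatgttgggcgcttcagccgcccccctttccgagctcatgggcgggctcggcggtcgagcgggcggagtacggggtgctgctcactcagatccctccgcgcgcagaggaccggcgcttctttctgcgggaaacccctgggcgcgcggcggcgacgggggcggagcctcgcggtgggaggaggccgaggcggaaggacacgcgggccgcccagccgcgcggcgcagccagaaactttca
The Hes5 window held the motif 2 times on opposite strands, the first starting 226 and the second 83 bases before the start, which put them 143 bases apart. Of 32851 promoters of this length 5.42% held the motif at least 1 time and 0.161% held it 2 or more times. RefSeq promoters were at hand for 8 of the 10 genes but not for Hes1 and Hey1, the other target genes. Hes5 was the 1 gene among these 8 whose window held the motif, and the rest of the 8 were receptors and ligands. The targets of the pathway were therefore not compared with each other here. The window of Nrarp, a pathway target outside the 10 genes, held the motif 0 times. The annotated span of Hes5 begins at chr4:154960626 and so reaches before the window, while that of Notch2, chr3:98013538-98150367, begins just after its window. A match is a description of the letters and not evidence of binding.

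The library labelled MT8m replicate 1 stood apart from its label by Thy1, Cst7 and Gfap, but not by Ttr, and is kept under that label. Thy1, whose promoter drives the transgenes, read 11.73 to 11.82 on the other 3 MT arrays and 9.90 on this one, inside the LM range of 9.53 to 9.96. Cst7, a gene of microglia around plaques, was 1.75 there and 5.92 to 8.03 on the other MT arrays. Gfap, a gene of reactive astrocytes, was 7.17 there, 8.21 to 9.80 on the other MT arrays and 6.99 to 7.31 in LM. Ttr, a transcript of the choroid plexus, was 10.69 there, 10.66 to 10.97 on the other MT arrays and 12.43 to 12.83 in LM. LM4m replicate 1 had the largest gap between the 3′ and 5′ Gapdh control probe sets, 2.19 against 0.66 to 1.42 on the others. Values without 1 or both of these arrays are given where they moved a result most. The directions below follow the sample labels and oppose the gene tables published with the study, in which the genotype names of the same arrays are exchanged. Thy1 was high on arrays labelled MT, with the exception of MT8m replicate 1.

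No gene of the 10 passed the test for a genotype or an age difference, which for these genes means that no difference held after adjustment over all 45037 probe sets. The test was limma's, called at a Benjamini-Hochberg adjusted p under 0.05, with differences in log2 units as MT minus LM or 8 minus 4 months. At 4 months 0 of the 10 genes and 0% of the 18193 genes passed. At 8 months 0 of 10 passed, against 0.022% of all genes, and for the genotype difference averaged over ages 0 of 10 passed, against 0.0989%. The age differences in LM, in MT and averaged, and the interaction of genotype and age, each had 0 of 10 passing, beside 0% of all genes. The moderated F test over the 4 groups passed 0 of 10, against 0.0165% of all genes. At an unadjusted p under 0.05 the 4-month difference held 3 of the 10 genes, Notch2, Notch4 and Hes5, all lower in MT, where 5.74% of all genes were called and 4.38% were called lower. The averaged genotype difference held 1 (Notch2, background 6.72%), the 8-month difference 0 (3.54%), the age difference in LM 1 (Notch4, 3.48%), those in MT and averaged 0 each (5.78% and 6.47%), the interaction 1 (Notch4, 2.58%) and the F test 2 (Notch2 and Notch4, 5.38%). The unadjusted 4-month count depended on the processing. It was 0 with the mean of all probe sets of a gene, 2 with dim probe sets left out and 3 after cyclic loess. The 3 differences behind the count also moved with single arrays. With each array left out in turn they ran from -1.07 to -0.66 for Notch2, -0.53 to -0.26 for Notch4 and -1.23 to -0.30 for Hes5. The value nearest to 0 for Hes5 was that without LM4m replicate 1.

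**Figure D1:**
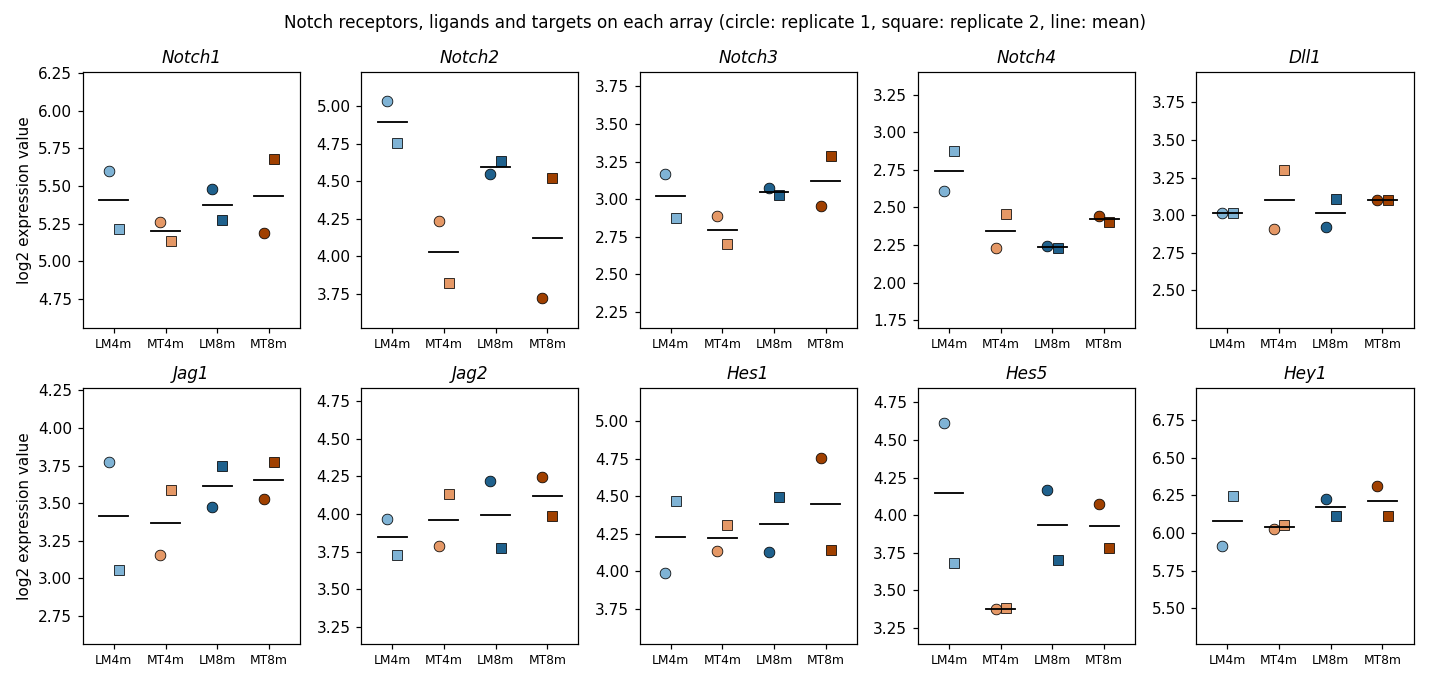
Log2 expression value (y axis, the same span of 1.7 log2 units in every panel) of the 10 Notch genes in each group (x axis). Circles and squares are the arrays of replicate 1 and 2, and lines are group means. The 4 MT arrays of Notch2 lie at 4.52 or lower and the 4 LM arrays at 4.55 or higher, while the genotypes overlap for the other 9 genes.

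Notch2, a receptor of stem cells, glia and vessel walls, had the largest genotype difference of the 10. Its probe set 1455556_at read 5.03 and 4.76 in LM4m, 4.24 and 3.82 in MT4m, 4.55 and 4.63 in LM8m, and 3.72 and 4.52 in MT8m. All 4 MT arrays lay below all 4 LM arrays, but the highest MT array, MT8m replicate 2, came within the second decimal of the lowest LM array. Such a separation towards lower values was found for 1 of the 10 genes and for 2.42% of all genes. The averaged difference was -0.67 ± 0.18 (SE, n = 4 arrays per genotype), 1.59-fold lower in MT, with a 95% interval of -1.08 to -0.25 and a limma adjusted p of 0.747. At 4 months it was -0.86 ± 0.26 (adjusted p = 0.944) and at 8 months -0.47 ± 0.26 (adjusted p = 1.000), and the interaction, 0.39 ± 0.36, did not pass. Without the library labelled MT8m replicate 1 the 8-month difference was -0.07 and the averaged one -0.47, and without MT8m replicate 2 they were -0.87 and -0.87.

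The second Notch2 probe set, 1451889_at, did not show the separation. It ran from 2.27 to 2.62 over the 8 arrays, with 2.33 and 2.45 in LM4m against 2.55 and 2.37 in MT4m, so that the genotypes overlapped at 4 months. Its averaged difference was -0.08 ± 0.09 (adjusted p = 0.922), and its mean lay below 2.475, the median of all probe set means. The mean of both probe sets gave an averaged difference of -0.38.

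Several lists of cell type markers also differed between MT and LM, but they did not follow Notch2 on every array. Of 12 choroid plexus markers 11 were measured, and all 11 were lower in MT in the averaged difference, with a mean level of 5.30 to 5.61 in LM4m, 5.46 to 6.52 in LM8m, 3.65 to 3.66 in MT4m and 3.46 to 3.58 in MT8m. Ttr, the defining transcript of that tissue, was 12.43 to 12.83 in LM and still 10.66 to 10.97 in MT. Replicates 1 and 2 of LM8m deviated from the mean of the 8 arrays by 0.80 and 1.87 in this list and read 4.55 and 4.63 for Notch2, and those of MT8m deviated by -1.07 and -1.20 and read 3.72 and 4.52. All 10 meningeal markers were also lower in MT in the averaged difference. Their mean level was 3.84 to 5.06 in LM4m, 3.93 to 5.11 in LM8m and 3.56 to 3.91 over the MT arrays. Replicates 1 and 2 deviated by 0.97 and -0.26 in LM4m and by -0.16 and 1.01 in LM8m. The MT arrays deviated by -0.53 to -0.18, so LM4m replicate 2 and LM8m replicate 1 lay in or near the MT range. Microglial markers, 9 of 10 measured, were all higher in MT, with a mean level of 5.91 to 6.15 in LM, 6.97 to 7.24 in MT4m, and 6.02 and 8.03 in MT8m. The list closest to Notch2 over the 8 arrays was that of neural progenitors and newborn neurons, with 6 of 10 markers lower in MT. Its mean levels were 3.79 to 3.86 in LM4m, 3.64 to 3.82 in MT4m, 3.72 on both LM8m arrays, and 3.52 to 3.72 in MT8m. This list moved little, with deviations of -0.20 to 0.13. Some of its markers were dim, such as Mki67 with a mean of 1.81, and the choroid plexus and meningeal lists also held markers below 2.475. Pearson's r with Notch2 was 0.809 for that list, 0.693 for choroid plexus, 0.651 for meningeal and -0.216 for microglial markers, a description over 8 arrays that share their groups. The part of these cells in the Notch2 difference was not tested, and in bulk RNA fewer cells of a type and less RNA per cell cannot be told apart.

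**Figure D2:**
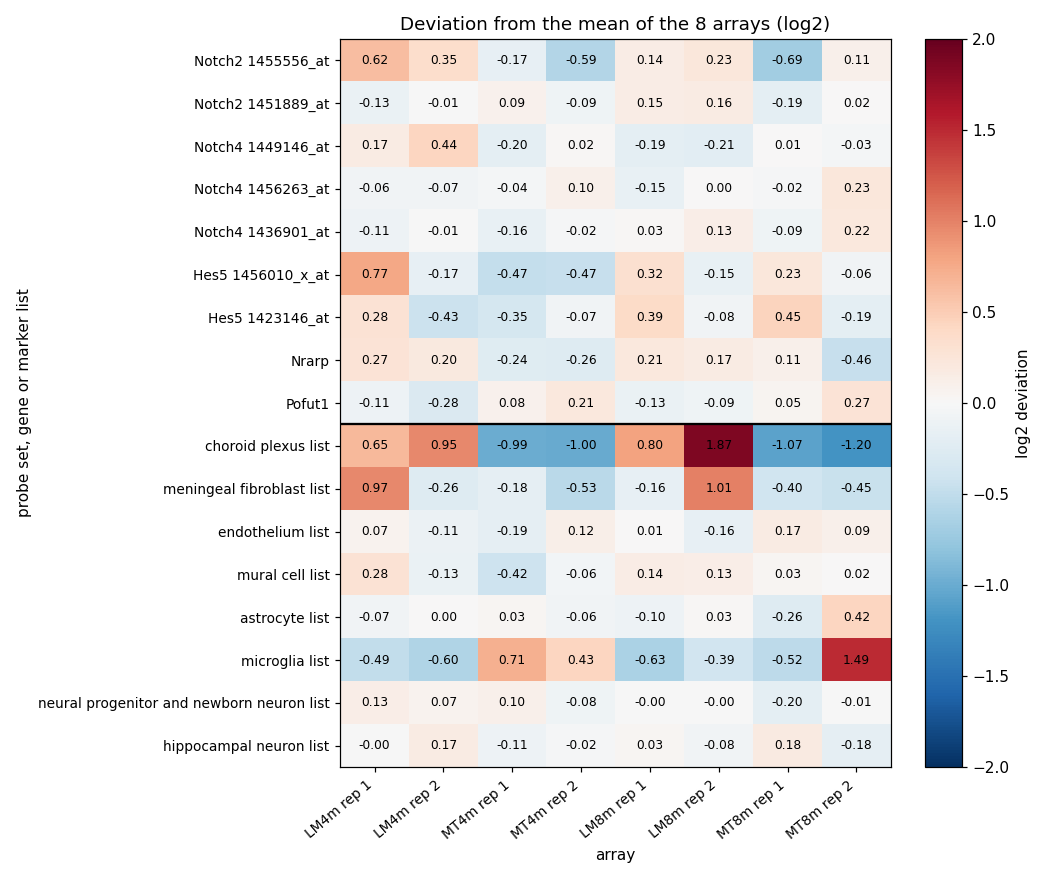
Deviation of each array (x axis) from the mean of the 8 arrays, in log2 units by colour and number, for the probe sets of Notch2, Notch4 and Hes5, for the pathway genes Nrarp and Pofut1, and, under the line, for the mean of each cell type marker list (y axis). Notch2 1455556_at is above its mean on the 4 LM arrays and on MT8m replicate 2, and the choroid plexus list is above its mean on the LM arrays alone.

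Notch1, the receptor best known for stem cell maintenance, read 5.60 and 5.21 in LM4m, 5.26 and 5.14 in MT4m, 5.48 and 5.27 in LM8m, and 5.19 and 5.68 in MT8m. The genotypes overlapped at both ages, and the highest value of all was MT8m replicate 2. The averaged genotype difference was -0.07 ± 0.14, with an interval of -0.39 to 0.25, and it was 0.02 without LM4m replicate 1 and 0.05 without MT8m replicate 1. The second Notch1 probe set, 1418633_at, ran from 3.81 to 4.59 and gave -0.15 ± 0.14.

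Notch3, the receptor of mural cells, read 3.17 and 2.88 in LM4m, 2.89 and 2.70 in MT4m, 3.07 and 3.03 in LM8m, and 2.96 and 3.29 in MT8m. Both MT8m values lay above both MT4m values, with an age difference in MT of 0.33 ± 0.16 (adjusted p = 0.879), which was 0.49 without the library labelled MT8m replicate 1 and 0.16 without MT8m replicate 2. The mean of the mural cell list on the same 4 arrays deviated by -0.42 and -0.06 in MT4m and by 0.03 and 0.02 in MT8m. The part of these cells in the difference was not tested. The averaged genotype difference of Notch3 was -0.08 ± 0.12, 0.0063 without MT8m replicate 1 and -0.0031 without LM4m replicate 1, and its second probe set, 1421964_at, gave the other sign, 0.10 ± 0.11.

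Notch4, a receptor of endothelial cells, read 2.61 and 2.87 in LM4m, 2.23 and 2.45 in MT4m, 2.24 and 2.23 in LM8m, and 2.44 and 2.40 in MT8m. The LM4m arrays were the highest pair, above MT4m at 4 months, while at 8 months both MT arrays lay above both LM arrays. Both LM8m arrays lay below both LM4m arrays for 2 of the 10 genes, Notch2 and Notch4, and for 17.2% of all genes. The genotype difference was -0.40 ± 0.14 at 4 months and 0.19 ± 0.14 at 8 months, and the interaction between them was 0.58 ± 0.20 (limma adjusted p = 1.000). Of all genes 3.37% had genotype groups that did not overlap at either age and lay in opposite directions. The age difference in LM was -0.50 ± 0.14 (adjusted p = 1.000). The mean of this probe set, 2.43, was below the median of all probe set means, and the other probe sets, at 1.69 to 2.07 for 1456263_at and 1.48 to 1.85 for 1436901_at, gave 4-month differences of 0.10 ± 0.14 and -0.03 ± 0.14. The mean of the endothelial marker list, 11 of 12 measured, deviated by no more than 0.19 in size on any array. Single markers deviated by more, such as Cldn5, which read 4.55 on LM8m replicate 2 against its mean of 5.21.

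By the probe set that stands for each gene, all 4 receptors had a lower mean in MT4m than in LM4m, with a median difference of -0.31. All 4 had a higher mean in MT8m than in MT4m, with a median of 0.16. Under the same contrasts the median over all genes was -0.02 and 0.0044. Of all 18193 genes, 10036 were lower in MT at 4 months and 9292 were higher with age in MT. The receptor directions are a count over 4 genes measured on shared arrays, and without LM4m replicate 1 the 4-month difference of Notch1 was -0.01. The other receptor probe sets did not all follow. At 4 months Notch2 1451889_at gave 0.07 and Notch4 1456263_at 0.10. Notch1 1418633_at gave -0.28, Notch3 1421964_at -0.09 and Notch4 1436901_at -0.03. With age in MT, Notch2 1451889_at gave -0.09, and the rest of these probe sets gave 0.08 to 0.35. The age order in MT rested on single arrays: without MT8m replicate 2 the difference was -0.31 for Notch2 and -0.0081 for Notch1, and without MT4m replicate 1 it was -0.03 for Notch4.

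For each of the 3 ligands the replicates of some groups differed by more than the averaged genotype difference. Dll1, a Delta-like ligand of progenitors and newborn neurons, read 3.02 and 3.01 in LM4m, 2.90 and 3.30 in MT4m, 2.92 and 3.11 in LM8m, and 3.10 and 3.10 in MT8m. Its averaged genotype difference was 0.09 ± 0.11, with an interval of -0.16 to 0.34. Jag1, the Jagged ligand of astrocytes, progenitors and vessels, read 3.77 and 3.05 in LM4m, 3.15 and 3.59 in MT4m, 3.48 and 3.75 in LM8m, and 3.53 and 3.78 in MT8m. The gap of 0.72 between its LM4m arrays covered nearly its whole range, and its averaged difference was -0.00069 ± 0.18 by genotype and 0.24 ± 0.18 by age. Without LM4m replicate 1 these were 0.18 and 0.42. The other Jag1 probe sets, 1421106_at and 1421105_at, gave genotype differences of -0.01 ± 0.12 and -0.12 ± 0.11. Jag2, the second Jagged ligand, read 3.97 and 3.73 in LM4m, 3.78 and 4.14 in MT4m, 4.22 and 3.77 in LM8m, and 4.25 and 3.99 in MT8m. Its probe sets 1426430_at and 1426431_at gave the same averaged genotype difference to 2 decimals, 0.12 ± 0.14 and 0.12 ± 0.15. For the first it was 0.05 without the library labelled MT8m replicate 1. The intervals of the ligands, the widest of which was -0.41 to 0.40 for Jag1, leave room for differences that these arrays could not detect.

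Among the target genes Hes5, a repressor that keeps progenitors from differentiating, had the lowest and tightest values in MT4m. Its probe set 1456010_x_at read 4.61 and 3.68 in LM4m, 3.38 and 3.38 in MT4m, 4.17 and 3.70 in LM8m, and 4.08 and 3.78 in MT8m. MT4m lay below the other 6 arrays, and LM4m replicate 1 lay 0.93 above its replicate. The 4-month difference was -0.77 ± 0.29 (limma adjusted p = 0.944), 1.70-fold lower in MT, and it was -0.30 without LM4m replicate 1 and -1.23 without LM4m replicate 2. At 8 months the difference was -0.0026 ± 0.29, the age difference in MT was 0.55 ± 0.29 (adjusted p = 0.885), and the interaction, 0.77 ± 0.41, did not pass and was 0.30 without LM4m replicate 1. The second probe set, 1423146_at, read 2.72 and 3.00 in MT4m, inside the range of the LM4m arrays at 3.35 and 2.64, and its 4-month difference was -0.14 ± 0.29. The suffix of the first probe set marks probes that may also match other transcripts. The mural cell list deviated by 0.28 on LM4m replicate 1 and by -0.42 and -0.06 on the MT4m arrays, and its part in the Hes5 values was not tested. The astrocyte list deviated by at most 0.074 in size at 4 months, and the list of progenitor and newborn neuron markers by at most 0.132.

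Hes1, the other Hes repressor, read 3.99 and 4.47 in LM4m, 4.13 and 4.31 in MT4m, 4.13 and 4.50 in LM8m, and 4.75 and 4.14 in MT8m. The genotypes overlapped at both ages, the highest array was the library labelled MT8m replicate 1, and the averaged difference was 0.06 ± 0.17 with that array and -0.09 without it. Without LM4m replicate 1 it was -0.06. Hey1, a repressor of vessels and glia, read 5.91 and 6.24 in LM4m, 6.03 and 6.05 in MT4m, 6.23 and 6.11 in LM8m, and 6.31 and 6.11 in MT8m. It had the second narrowest range of the 10 genes, 0.40 log2 units, with an averaged genotype difference of 0.0029 ± 0.11 and an interval of -0.24 to 0.25. It was -0.08 without LM4m replicate 1 and -0.05 without MT8m replicate 1. Both MT8m values of Hey1 lay above both MT4m values, with an age difference in MT of 0.17, which was 0.07 without MT8m replicate 1. Such an order was common, since MT8m lay wholly above MT4m for 3 of the 10 genes (Notch3, Hes5 and Hey1) and for 18.4% of all genes.

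**Figure D3:**
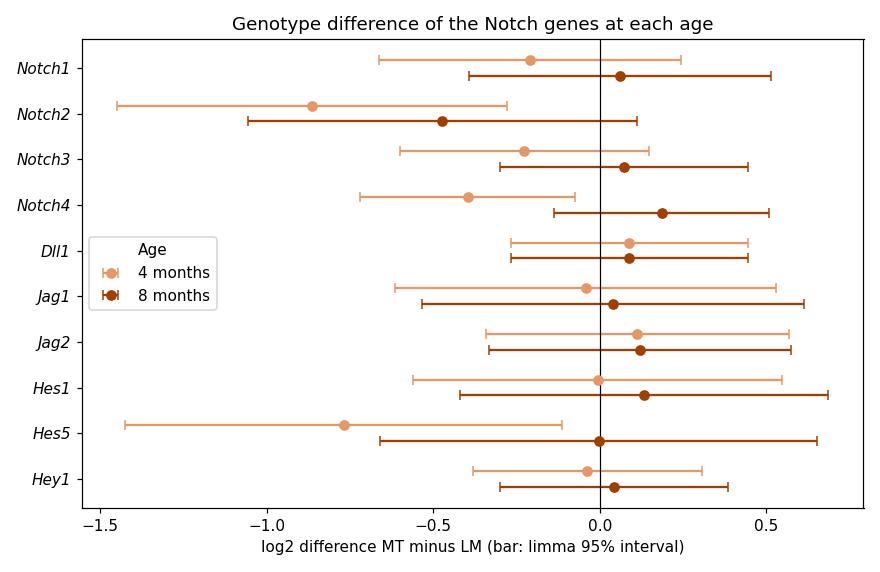
Genotype difference (x axis, log2, MT minus LM) of the 10 Notch genes (y axis) at 4 months in light and at 8 months in dark colour, with the limma 95% interval of each as a bar. The 4-month intervals of Notch2, Notch4 and Hes5 lie below 0 before adjustment, and every 8-month interval holds 0.

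Over all 10 genes, 8 had a lower mean in MT at 4 months (median difference -0.12, all genes -0.02; 6 of 10 after cyclic loess between arrays, where Hes1 and Hey1 turned) and 8 had a higher mean at 8 months (median 0.07, all genes 0.0020). The 8-month count was 5 higher and 5 lower without the library labelled MT8m replicate 1. Averaged over ages 6 of 10 were lower in MT, with a median of -0.04. With age in MT 9 of 10 had a higher mean at 8 months (median 0.20, all genes 0.0044), and 7 of 10 did without MT8m replicate 2 or without MT4m replicate 1. Without MT8m replicate 1 the count was again 9, but Hes1 was lower and Dll1 higher there, with differences of -0.08 and 0.00080. In LM 5 were higher and 5 lower. At 4 months MT and LM did not overlap for 3 of the 10 genes, all lower in MT, beside 22.9% of all genes in that direction, and at 8 months for 1 lower (Notch2, 13.8%) and 1 higher (Notch4, 13.3%). For all 10 genes the largest gap between the replicates of a group was at least as large as the averaged genotype difference. The largest of 4 gaps is set against 1 averaged difference here, which is easily met, and the share of all genes that meet it was not counted. Of the 7 genes with more than 1 probe set, 5 had averaged genotype differences of the same sign in all their probe sets, and Notch3 and Notch4 did not.

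**Figure D4:**
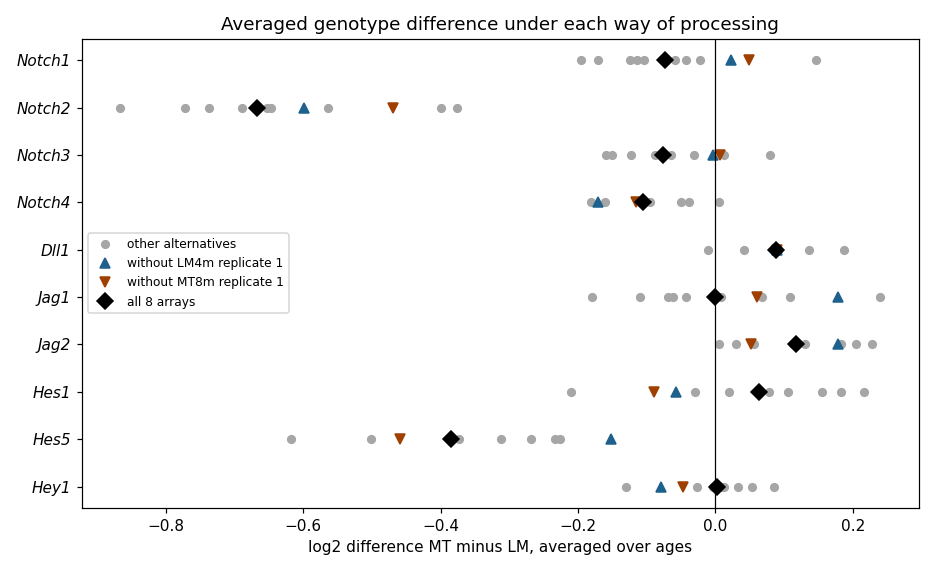
Genotype difference averaged over ages (x axis, log2, MT minus LM) of the 10 Notch genes (y axis) with all 8 arrays as deposited (black), without LM4m replicate 1 (blue), without MT8m replicate 1 (brown) and under the other ways of processing (grey). Notch2, Hes5 and Jag2 stay on one side of 0, with Notch2 between -0.87 and -0.38.

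The rest of the pathway was covered by a list of 49 genes, of which 46 were measured. For every genotype and age contrast 0 of the 46 passed. At 4 months 35 of 46 had a lower mean in MT, beside 10036 of all 18193 genes, with a median of -0.17, and 29 of 46 with a median of -0.09 without LM4m replicate 1. At 8 months 24 were higher and 22 lower. By group, lower means at 4 months were counted for nuclear complex and corepressor genes (7 of 8, median -0.24), inhibitors and turnover genes (8 of 9, median -0.24), sheddases and gamma-secretase subunits (6 of 7, median -0.15), and other Hes, Hey and target genes (6 of 7, median -0.27). Of the 5 other ligand and ligand-like genes 3 were lower, receptor glycosylation genes were split 3 and 3, and ligand endocytosis genes 2 and 2. These groups are small and differences between them were not tested.

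**Figure D5:**
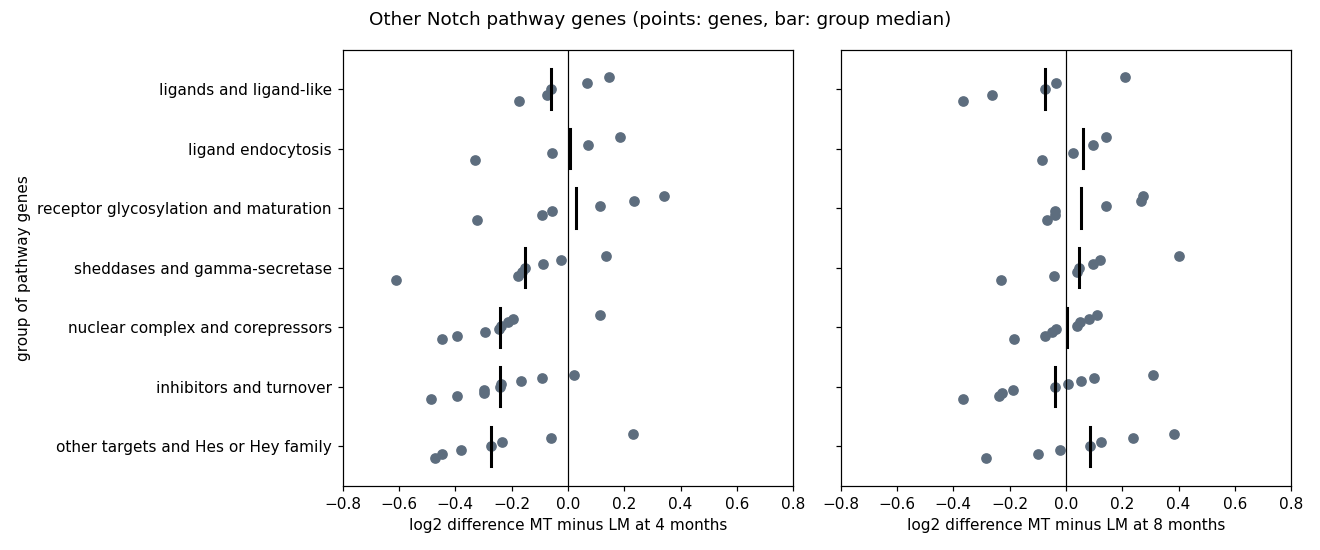
Genotype difference (x axis, log2, MT minus LM) of the 46 other Notch pathway genes by group (y axis) at 4 months on the left and 8 months on the right, with a point per gene and a bar at the group median. The medians of the lower 4 groups lie between -0.27 and -0.15 at 4 months and between -0.04 and 0.08 at 8 months.

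Nrarp, a target of the pathway that limits Notch signalling, had the lowest averaged genotype difference of the 46. It read 5.74 and 5.67 in LM4m, 5.23 and 5.21 in MT4m, 5.68 and 5.64 in LM8m, and 5.58 and 5.01 in MT8m. All 4 MT arrays lay below all 4 LM arrays, a separation that 2.42% of all genes showed, with the library labelled MT8m replicate 1 nearest to the LM arrays. The difference was -0.43 ± 0.13 (limma adjusted p = 0.775). Without that library it was -0.57, without MT8m replicate 2 it was -0.28, and the mean of the probe sets of Nrarp gave -0.27. Numbl, an inhibitor of Notch, and Maml1, a Mastermind-like coactivator, followed at -0.31 ± 0.12 and -0.29 ± 0.13, with Numbl at -0.18 without MT8m replicate 2 and Maml1 at -0.19 without LM4m replicate 1.

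Pofut1, the enzyme that adds fucose to the extracellular domain of Notch, had the highest averaged difference. It read 4.75 and 4.57 in LM4m, 4.94 and 5.06 in MT4m, 4.72 and 4.76 in LM8m, and 4.91 and 5.13 in MT8m. All 4 MT arrays lay above all 4 LM arrays, a separation that 1.28% of all genes showed, and the difference was 0.31 ± 0.10 (adjusted p = 0.794). The mean of the probe sets of Pofut1 gave 0.06. Poglut1, which adds glucose to the same domain, followed at 0.19 ± 0.11, and was 0.11 without LM4m replicate 1.

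Aph1a, a subunit of gamma-secretase, had the lowest 4-month difference of the list, -0.61 ± 0.18 (limma adjusted p = 0.944), and 0.12 at 8 months. It read 5.39 and 5.10 in LM4m, 4.50 and 4.78 in MT4m, 5.30 and 4.95 in LM8m, and 5.32 and 5.17 in MT8m, so MT4m lay below every other array. The highest 8-month difference was 0.40 ± 0.19 for Adam17, a sheddase, and it was 0.20 without the library labelled MT8m replicate 1 and 0.60 without MT8m replicate 2. By age the highest averaged difference was that of Id1, a helix-loop-helix inhibitor of differentiation, 0.57 ± 0.17 (adjusted p = 0.659), with all 8-month arrays at 5.02 or above and all 4-month arrays at 4.97 or below, an order that 1.37% of all genes showed. The lowest was -0.30 ± 0.12 for Mib1, the ligase that sends Notch ligands into endocytosis.

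The genes most like the 3 most variable members were found by Pearson's r over the 8 arrays, as a description with no test, among genes above the median level. Notch2 was closest to Psma5 (r = 0.986), Twistnb (0.959) and Ntn4 (0.958). Hes5 was closest to Nfic (0.985), Tmem248 (0.978) and Tpcn1 (0.970), and Jag1 to Ahnak (0.908), Tab1 (0.905) and Nfkbia (0.904). These values were picked as the highest among many genes over 8 arrays of 4 groups, and nothing about function follows from them.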

How the data were processed

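The authors made the values by RMA on the 8 arrays together, in affy (version not given in the sources read), and the deposited table holds log2 expression for 45101 probe sets. Values lay between 0.979 and 12.9. Probe set means had a median of 2.475, which is low for RMA: the scale may carry an unknown offset. Levels of different probe sets were compared only to choose the probe set of a gene and to set apart those below the median. Columns were matched to samples by their labels. Controls were left out of the tests, which kept 45037 probe sets. Of these, 34945 carried 1 symbol in the platform annotation, 932 several and 9160 none, and symbols were updated through RefSeq (GRCm38.p6). Scanner files and detection calls were not used here. Precision is limited by the number of arrays. Of the other pathway genes listed, 46 of 49 are reported here.

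The 4 group means were estimated over all 8 arrays (4 residual degrees of freedom) by lmFit and eBayes of limma 3.58.1, run in R 4.3.3, after the limma test over 4 classes of the study's methods. Tests were two-sided, with p-values adjusted over all probe sets tested, and the fit was tested on simulated data. All members were named, and of the other pathway genes at most 3 per direction and contrast, by size of the difference. Each array's value for a marker list is the mean deviation of its genes. Alternatives were cyclic loess, leaving out dim probe sets, an eBayes prior with trend and robust settings, testing 1 probe set per gene, the mean of a gene's probe sets, fits of the groups compared alone, an additive model, a replicate block, arrays left out in turn, and LM4m replicate 1 and MT8m replicate 1 left out together. The members and all lists were chosen with earlier results of these data known.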

Additional observations from a re-analysis of the deposited data

Results flagged for a closer look

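Notch4 stood out because its genotype groups did not overlap at either age and lay in opposite directions, MT below LM at 4 months and above it at 8 months. The difference between the 2 genotype differences was 0.58 ± 0.20 in log2 units and did not pass the interaction test (limma adjusted p = 1.000), and 3.37% of all genes had the same kind of order. Leaving out each array in turn gave 0.45 to 0.72, and the mean of all Notch4 probe sets gave 0.23. The other Notch4 probe sets did not show it, and the probe set is dim.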

How the results depend on the processing

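All 158 counts of genes passing the test, over 18 alternatives, were 0, as with the values as deposited. These cover the 10 Notch genes in each contrast and the F test, and the other pathway genes in the averaged contrasts. Of 1113 single differences of the Notch genes recomputed, 0 passed and 114 took the other sign. Of 371 recomputed for the other pathway genes 0 passed, but these cover only the named genes, picked for large differences. Over all 46 of them the number lower in MT moved from 35 to 29 at 4 months without LM4m replicate 1, and from 32 to 26 averaged over ages without both arrays in doubt. The averaged genotype difference kept its sign in every alternative for 3 of the 10 genes (Notch2, Jag2 and Hes5), and the averaged age difference for 4 (Notch3, Notch4, Jag1 and Jag2). That of Notch2 ran from -0.87 to -0.38, with adjusted p from 0.287 to 1.000. Without each array in turn the 8-month difference of Notch2 ran from -0.87 to -0.07 and the 4-month difference of Hes5 from -1.23 to -0.30. The filter on dim probe sets removed Notch4 and left 9 of the 10 genes. Pairing could be tried only between the ages of a genotype, where titles share numbers: same-numbered arrays had deviations that correlated at 0.241 in LM and -0.175 in MT, so the numbers were not taken as pairs, and with the replicate block 0 of the 10 genes passed in any age contrast or the interaction. Crossed pairing of the MT arrays, chosen after seeing the data, also gave 0. With 2 arrays per group, differences of the sizes seen here did not pass after adjustment over 45037 probe sets, and compression of dim probe sets was not measured.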
